A study of Homo sapiens with 4 samples.

Results

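LGR4-/- cells derived from the H1 human embryonic stem cell line were compared with wild-type H1 cells after 2 days of hematopoietic differentiation, gene by gene, in RNA-SEQ libraries. The comparison used 3 of the 4 libraries of the series, namely 1 wild-type control library and 2 LGR4-/- libraries, which are called clone 1 and clone 2 here. The 1 remaining library, from wild-type cells given R-spondin2 at 20 ng/mL during the first 1 day, entered the filter on low values and is quoted beside the others only where it helps to place the control. All cells, controls included, had been grown on mAGM-S3, a mouse stromal line, in serum-containing medium, and were sorted for TRA-1-85, an antigen of human cells, so that stroma was depleted. The labels give the genotype as LGR4-/- for both libraries and number them, but do not say how LGR4 was disrupted, whether each library is 1 clone, or whether it is 1 culture. With a single control library there is no replicate check on that side, and an exact permutation test of 2 libraries against 1 cannot give a p below 0.333, whether one-sided or two-sided on the absolute difference. The differences are therefore given as measurements, with the spread (SD) between both LGR4-/- libraries.

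LGR4 is a seven-transmembrane receptor that binds R-spondins, secreted proteins that strengthen WNT signaling. An R-spondin held by LGR4 or its relatives LGR5 and LGR6 draws the membrane ubiquitin ligases ZNRF3 and RNF43 away from the Frizzled receptors for WNT ligands, which then stay longer at the cell surface, and β-catenin is stabilized. In the embryo and in differentiating stem cells, WNT, BMP and NODAL signals together open the primitive streak, from which mesoderm and endoderm leave the pluripotent epiblast, and blood later arises from the lateral part of that mesoderm.

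Expression was deposited as FPKM, which scales fragments to transcript length and to the mapped total of the library, for 17894 genes. A difference is given on the scale of log2(FPKM+1), where 1 is a 2-fold change for a well expressed gene and an understatement for a low one. Of the 17894 genes, 12697 had a mean of at least 1 FPKM over the 4 libraries and were kept. A gene is called lowered or raised when it lay at least 1 below or above the control in both clones. The depth estimated from the low values was 8920000 reads for the control, 8910000 for clone 1 and 8810000 for clone 2, and between 12519 and 12717 genes reached 1 FPKM in each of the 4 libraries. The median difference over all genes kept was 0.02 in clone 1 and 0.02 in clone 2, so no correction for a shift of all genes was made. Over chromosomes with at least 100 genes kept, the median ran from -0.01 to 0.09 in clone 1 and from -0.01 to 0.05 in clone 2.

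LGR4 itself was lower in both clones, and its RNA was still present. The gene (NCBI gene 55366), on the minus strand at chr11:27365961-27472775 of GRCh38 by GENCODE release 29, was at 21.8 FPKM in the control library, 7.40 in clone 1 and 13.9 in clone 2. Clone 1 thus held 33.99% and clone 2 64.1% of the control level, with a mean difference of -1.02 ± 0.59 (SD, n = 2 clones). From 1011 implied reads in the control, 343 in clone 1 and 640 in clone 2, the log2 ratio was -1.56 (95% interval -1.74 to -1.38) in clone 1 and -0.64 (-0.79 to -0.50) in clone 2. These intervals cover counting error only, and their distance shows that the clones differed from each other by more than counting error. A disrupting edit can leave RNA that is still counted, so the level does not by itself check the genotype, and LGR4 in clone 2 did not reach the difference of 1 used for calls.

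In all, 137 of 12697 genes were lowered in both clones, or 1.08%, and 30 were raised, or 0.236%. Counts in the gene lists below are to be read against these shares. Of the 137, 15 were under 1 FPKM in both clones and passed the filter through wild-type libraries in which they were high. Only a fall could be called for these 15, so they are no support for the list counts. Clone 1 alone gave 287 genes lowered (2.26%) and 160 raised (1.26%), and clone 2 gave 149 lowered (1.17%) and 42 raised (0.331%). No gene was past 1 in opposite directions in the clones (0 genes). Clone 1 lay further from the control, since 130 of the 137 lowered genes fell further in clone 1 and 24 of the 30 raised genes rose further in clone 1. The median over the lowered genes was -1.76 in clone 1 and -1.29 in clone 2, and over the raised genes 1.26 and 1.12. Both columns of differences share the control library, so an unusual value in that library would move both clones alike, and how far it did was not tested. The control was used without a replicate, and limma, which borrows the spread across genes, called 0 genes at an adjusted p under 0.05 (smallest adjusted p 0.0732), with 1029 genes lower and 1313 higher at an unadjusted p under 0.05. This count of 0 does not show that the genes did not differ.

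**Figure D1:**
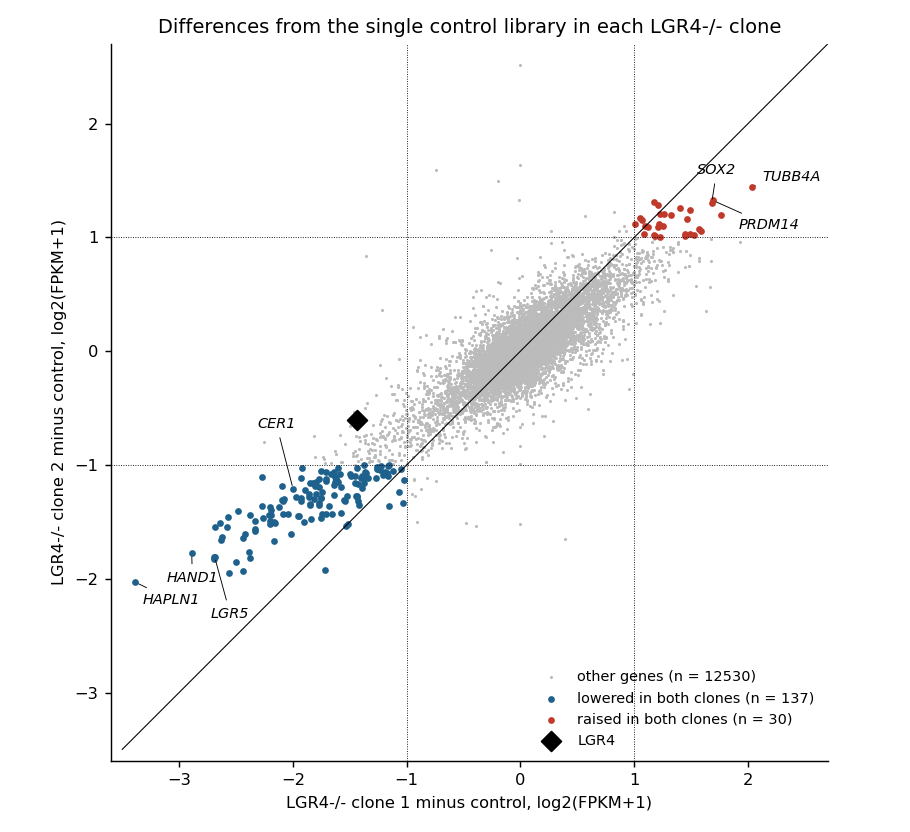
Each point is 1 of the 12697 genes kept, placed by its difference from the control in clone 1 (x axis) and clone 2 (y axis), both on the log2(FPKM+1) scale; dotted lines mark a difference of 1 and the solid line equal differences. The 137 lowered genes lie mostly above the line of equality, that is with the larger fall in clone 1, and LGR4 (diamond, -1.44 and -0.61) lies outside the called group because of clone 2.

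The genes nearest the threshold show how finely it divides them. RBM24 was just inside, at 3.75 FPKM in the control and 0.83 and 1.37 in the clones, and PDGFRA, a receptor of mesoderm cells, was just outside, at 17.1 FPKM in the control and 5.62 and 8.09 in the clones. On the raised side PIM2 was inside, at 23.0 FPKM in the control and 55.1 and 47.2 in the clones, and ERBB3 outside, with differences of 1.17 and 0.99. Of the lowered genes, 74 had a single annotated transcript and at least 10 implied reads in clone and control together, for each clone, and were given a counting interval. The count in a clone was under 10 reads in 10 of them, HOXB2 (5 reads in clone 1) and LUM (4) among these. All 74 had both intervals below 0, and in 61 both lay below -1. The same held for 14 raised genes, all of whose intervals were above 0, with both above 1 in 4. Calls and intervals come from the same values, so the side of 0 was largely fixed by the call. It is no support for the calls.

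The 15 genes of largest fall had mean differences between -2.71 and -2.06. HAPLN1, which encodes a protein that links hyaluronan to proteoglycans, fell most. It (NCBI gene 1404, chromosome 5, 83637805 to 83721613, GRCh38) was at 61.5 FPKM in the control and 83.0 in the R-spondin2 library, and at 4.99 in clone 1 and 14.3 in clone 2. The mean difference was -2.71 ± 0.96, and the implied reads went from 3077 to 249 and 706. HAND1, a basic helix-loop-helix factor of heart and extraembryonic mesoderm (NCBI gene 9421, chromosome 5, 154474972 to 154478264, GRCh38), was at 70.0 FPKM in the control and 99.8 in the R-spondin2 library, against 8.59 and 19.8 in the clones. Its difference was -2.33 ± 0.79. LGR5, the second R-spondin receptor (NCBI gene 8549, chromosome 12, 71439770 to 71586310, GRCh38), was at 36.7 FPKM in the control and 46.3 in the R-spondin2 library, against 4.85 and 9.78 in the clones, or -2.25 ± 0.62. In each of these genes both clones lay far below both wild-type libraries, and clone 1 below clone 2.

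The remaining genes among the 15 largest falls had mean differences between -2.26 and -2.06. They were GYPB, a glycophorin of red cells, HOXB2 and HLX, both homeobox factors, MYL4, a myosin light chain of embryonic muscle and atrium, ERBB4, a neuregulin receptor, ALPK2, a kinase, FAM89A, NOG, a secreted BMP antagonist, BMP4, a BMP ligand, APOBEC3G, a cytidine deaminase, MSX1, a homeobox target of BMP signals, and MAMLD1. HOXB2 nearly vanished in clone 1, at 0.35 FPKM, with 1.06 in clone 2 and 6.96 in the control. ERBB4 went from 8.22 FPKM to 0.70 and 1.41. GYPB shares long near-identical stretches with GYPE and other glycophorin genes, so its counts (14.2 FPKM in the control, 1.36 and 3.30 in the clones) are uncertain in how they were divided among these genes.

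The rises were fewer and smaller. TUBB4A, a β-tubulin isotype known from neurons (NCBI gene 10382, chromosome 19, 6494319 to 6502584, GRCh38), had the largest mean difference, 1.74 ± 0.41. It was at 2.57 FPKM in the control and 1.69 in the R-spondin2 library, against 13.6 and 8.73 in the clones. PRDM14, a regulator that maintains pluripotency (NCBI gene 63978), was at 7.59 FPKM in the control, 26.8 in clone 1 and 20.5 in clone 2, or 1.51 ± 0.26. SOX2, a core pluripotency factor and later a neural one (NCBI gene 6657, chromosome 3, 181711924 to 181714436, GRCh38), was at 19.9 FPKM in the control and 5.58 in the R-spondin2 library, against 66.0 and 50.7 in the clones. Its difference was 1.49 ± 0.26, and its 446 implied reads in the control became 1478 and 1122. In these genes the control lay between the R-spondin2 library and both clones.

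The other large rises were in HES3, a helix-loop-helix repressor (1.48), USP44, a deubiquitinase (1.36), TRIML2 (1.33), SMPDL3B, a sphingomyelin phosphodiesterase relative (1.32), LECT1, which encodes chondromodulin (1.32), RARRES2, which encodes the chemoattractant chemerin (1.31), PPP2R2B, a regulatory subunit of protein phosphatase 2A (1.27), FAM46B (1.26), LINGO1, a neuronal co-receptor (1.26), PARD6A, a polarity protein (1.25), TMEM189-UBE2V1 (1.24) and MFGE8, a secreted protein that marks dying cells for uptake (1.24). MFGE8 was the most abundant of them, at 78.5 FPKM in the control and 216 and 162 in the clones. TMEM189-UBE2V1 is a read-through transcript whose reads overlap those of its neighbors. It was at 0.79 FPKM in the control, 6.88 in the R-spondin2 library and 3.04 and 3.44 in the clones, so both clones were above the control and below the other wild-type library.

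**Figure D2:**
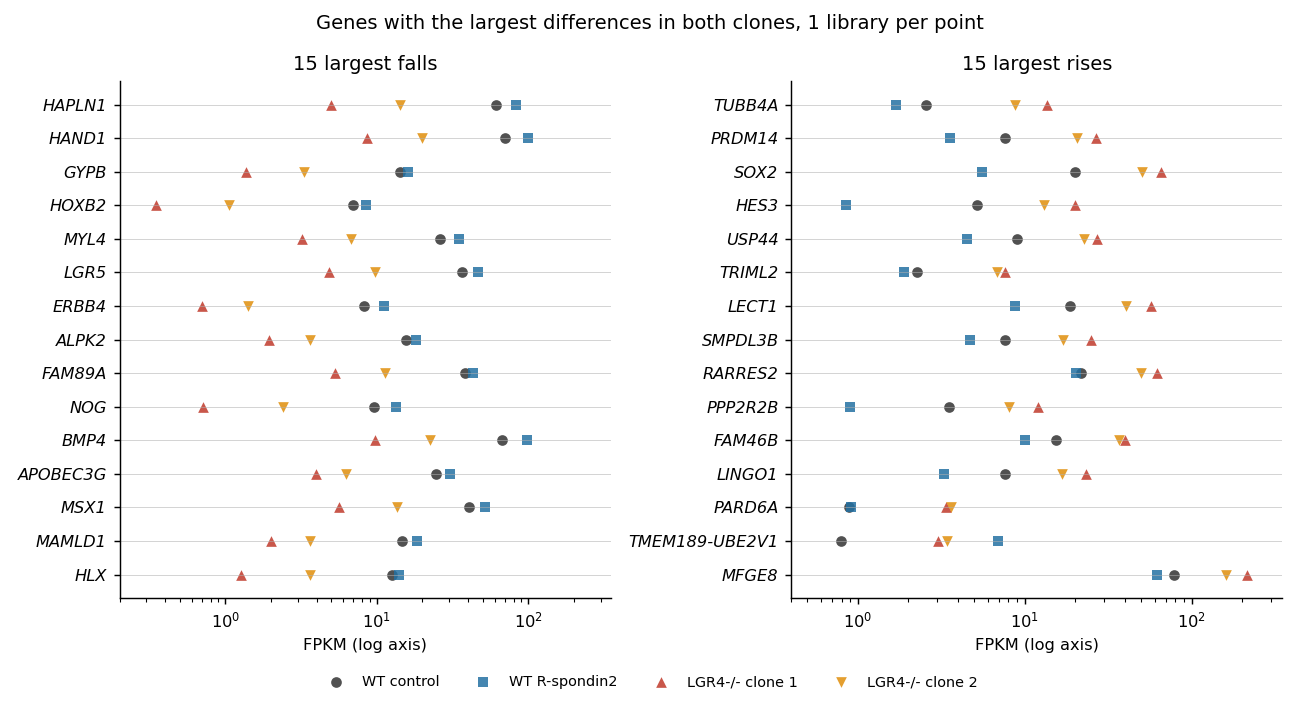
FPKM on a log axis of the 15 genes with the largest falls (left) and the 15 with the largest rises (right), with 1 symbol for each of the 4 libraries. In every gene at left both clones lie below both wild-type libraries, with HAPLN1 at 4.99 and 14.3 against 61.5 in the control, and at right both lie above them except in TMEM189-UBE2V1.

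The promoters of these genes were set beside the calls because TCF and LEF, the factors through which β-catenin acts, bind a short known sequence. RefSeq promoters of 250 bases before and 50 after the gene start (GRCh38.p14) matched 10352 of the genes kept, including 95 of the 137 lowered and 20 of the 30 raised. The TCF/LEF letters CTTTGAT or CTTTGAA, searched on both strands, occurred in 3.63% of all 10352, in 6 of the 95 lowered (6.32%) and in 1 of the 20 raised, PIM2. The 6 were HAND1, ZAP70, SEMA6D, DKK1, CYP27A1 and CDX2. The letters AGATAA, bound by GATA factors and likewise searched on both strands, occurred in 4.78% of all, in 11 of the 95 lowered (11.6%) and in 6 of the 20 raised, namely TAP1, CYP2S1, GDF3, TRIML2, HES3 and TUBB4A. The T-box letters TCACACCT, bound by BRACHYURY and its relatives, occurred in 0.676% of all, in 1 of the 95 lowered, LIPG, and in 0 of the 20 raised. In the promoters printed here the TCF/LEF and GATA letters do not overlap. These matches are counts of letters in a short window, and binding was not measured. The 250 bases before the start are printed for 3 lowered genes that hold the TCF/LEF letters, HAND1 (chr5:154478228-154478477, minus strand), DKK1 (chr10:52314031-52314280, plus strand) and CDX2 (chr13:27969316-27969565, minus strand), and for 2 raised genes with 2 GATA matches each, GDF3 (chr12:7695776-7696025, minus strand) and TUBB4A (chr19:6502849-6503098, minus strand). They run 5′ to 3′ on the strand of the gene, and capitals mark the TCF/LEF and GATA letters, in either orientation. In HAND1 the match is ATCAAAG, in DKK1 CTTTGAA, and CDX2 holds CTTTGAA and, further on, the GATA letters as TTATCT.
HAND1: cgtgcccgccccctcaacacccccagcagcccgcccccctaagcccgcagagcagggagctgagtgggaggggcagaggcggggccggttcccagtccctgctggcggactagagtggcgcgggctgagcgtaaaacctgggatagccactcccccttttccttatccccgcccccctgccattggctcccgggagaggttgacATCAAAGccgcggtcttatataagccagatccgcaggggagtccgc
DKK1: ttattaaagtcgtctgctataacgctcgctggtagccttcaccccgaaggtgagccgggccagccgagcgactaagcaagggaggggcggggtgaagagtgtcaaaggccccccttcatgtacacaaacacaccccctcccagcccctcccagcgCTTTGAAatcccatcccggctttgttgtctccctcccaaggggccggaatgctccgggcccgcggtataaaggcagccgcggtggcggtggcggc
CDX2: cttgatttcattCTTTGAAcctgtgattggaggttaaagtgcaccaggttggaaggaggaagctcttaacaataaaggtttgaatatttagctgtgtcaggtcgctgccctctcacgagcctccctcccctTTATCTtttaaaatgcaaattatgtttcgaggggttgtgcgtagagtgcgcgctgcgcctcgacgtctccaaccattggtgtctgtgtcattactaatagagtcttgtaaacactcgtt
GDF3: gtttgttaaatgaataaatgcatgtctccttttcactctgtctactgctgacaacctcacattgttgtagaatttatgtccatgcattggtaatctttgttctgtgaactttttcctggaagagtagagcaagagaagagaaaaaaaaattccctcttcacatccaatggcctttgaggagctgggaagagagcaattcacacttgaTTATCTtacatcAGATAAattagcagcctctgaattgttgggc
TUBB4A: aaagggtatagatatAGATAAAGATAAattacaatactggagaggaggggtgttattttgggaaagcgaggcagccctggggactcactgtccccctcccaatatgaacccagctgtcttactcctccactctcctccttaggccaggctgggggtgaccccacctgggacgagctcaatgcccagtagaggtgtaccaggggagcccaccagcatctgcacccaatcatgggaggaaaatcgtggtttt

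Cell types were looked at through written sets of markers before the gene groups. Summed over 9 mesoderm markers, the level was 1103 FPKM in the control, 381 in clone 1 and 596 in clone 2. Summed over 4 pluripotency markers, it was 653 in the control and 1213 and 1116 in the clones. Markers of blood and endothelium summed to 6.17, 2.76 and 3.65 FPKM, and 4 of the 6 were under 1 FPKM in every library. Neural markers summed to 106, 80.0 and 93.2 FPKM, all but a little of it from NES, while SOX1, PAX6 and ZIC1 were under 1 FPKM in every library. Fibroblast markers summed to 74.2, 79.5 and 82.1 FPKM, most of it from COL1A1 (64.0, 74.8 and 74.6), and DCN was under 1 FPKM throughout. LUM, a matrix proteoglycan of the same set, was lowered, from 5.49 FPKM to 0.16 and 1.45. The stromal line was of mouse, and these human genes were not tested as a measure of it. In the longer list of mesenchymal stroma genes, 13 kept, LUM was the 1 gene lowered and 0 were raised, against 1.08% and 0.236% of all genes kept. Lower by any amount in both clones were 10, against 35.5% of all genes kept. The medians were -0.52 in clone 1 and -0.25 in clone 2. That list summed to 868 FPKM in the control, 608 in clone 1 and 751 in clone 2, and its part in the other results was not tested. Trophoblast markers summed to 12.6, 7.72 and 7.56 FPKM, but the members did not move together. CDX2 and GATA3 were lower in both clones, KRT7 was higher (4.67 and 3.37 FPKM), and CGA was under 1 FPKM throughout. Endoderm markers summed to 63.3, 38.7 and 42.7 FPKM, most of it from SOX17 (47.1, 23.6 and 27.2). APOA1 was also lower in both clones, while FOXA2 was higher (9.05, 11.9 and 11.6 FPKM). AFP and TTR were under 1 FPKM in every library. In bulk RNA of sorted cells, fewer cells of a type and less of its RNA per cell cannot be told apart.

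The lateral plate and cardiac factors gave the lowest median of the 48 gene lists examined. Of 30 genes listed, 18 were kept and 12 lay below the filter. Among the 18, 12 were lowered and 0 raised in both clones, against 1.08% and 0.236% of all genes kept. In both clones 16 were lower by any amount, against 35.5%. The median was -1.79 in clone 1 and -1.17 in clone 2. The lowered members were HAND1, BMP4, MSX1, IRX3, TBX3, GATA4, SNAI2, FOXC1, GATA6, NKX2-5, FOXF1 and MEIS2. Of these, NKX2-5, FOXF1 (0.60 and 1.23 FPKM in the clones) and MEIS2 (0.59 and 0.70) passed the filter through the wild-type libraries. Their falls are therefore no support for the count. GATA6, a zinc finger factor of cardiac mesoderm and endoderm, was the most abundant, at 141 FPKM in the control, 39.5 in clone 1 and 61.2 in clone 2. NKX2-5, a cardiac homeobox factor, was at 3.56 FPKM in the control and at 0.34 and 1.09 in the clones. MSX2 (-1.16) and HAND2 (-1.15) did not pass 1 in clone 2. FOXH1, the partner of SMAD proteins in NODAL signaling, was at 94.4, 94.3 and 98.3 FPKM, so clones and control were level in this gene.

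Genes of the primitive streak and nascent mesoderm were lower as a list, but less evenly. Of 23 genes kept, 5 were lowered (1.08% of all genes kept), 0 raised and 19 were lower by any amount in both clones (35.5% of all genes kept), with a median of -1.08 in clone 1 and -0.55 in clone 2. The lowered genes were MESP1 and MESP2, paired factors at the exit from the streak, APLNR, the apelin receptor, CER1, a secreted antagonist of NODAL, BMP and WNT, and WNT8A. APLNR was at 362 FPKM in the control, 71.2 in clone 1 and 122 in clone 2. CER1, the most abundant of the lowered genes, was at 2395, 599 and 1034 FPKM, or 25962, 6483 and 11064 implied reads.
The factors that define the streak itself lay closer to the control. T, known as BRACHYURY, was at 70.3 FPKM in the control, 37.6 in clone 1 and 66.5 in clone 2, and MIXL1 at 377, 174 and 257. EOMES was at 117, 54.6 and 77.1 FPKM. In each of them clone 2 was less than 1 below the control. NODAL and FGF4 were the only members of the list above the control in both clones, at 84.2, 90.8 and 124.4 FPKM for NODAL and 13.2, 16.2 and 22.1 FPKM for FGF4.

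Definitive endoderm genes had a median of -0.97 in clone 1 and -0.79 in clone 2. Of 17 genes kept, 4 were lowered and 0 raised, against 1.08% and 0.236% of all genes kept. The 4 were GATA4, CER1, GATA6 and CDX2, which other lists also hold. LHX1, an organizer and endoderm factor, was at 67.4 FPKM in the control and 18.6 and 34.8 in the clones, and SOX17 at 47.1, 23.6 and 27.2 FPKM. FOXA2, a defining factor of endoderm and the axial midline, went the other way, at 9.05, 11.9 and 11.6 FPKM. Clusters of HOX and CDX genes, which carry the trunk identity of posterior mesoderm, had 8 members kept and 32 under the filter. Of the 8, HOXB2, HOXB6 and CDX2 were lowered, 0 were raised and 7 were lower in both clones, with a median of -1.13 and -0.48. Over all genes kept, these shares were 1.08%, 0.236% and 35.5%. HOXB6 was at 6.04 FPKM in the control and 0.40 and 1.35 in the clones. Both HOXB2 and HOXB6 passed the filter through the wild-type libraries. Among the 6 T-box factors kept, TBX3 was lowered (13.1, 2.07 and 4.01 FPKM) and TBX6, a factor of paraxial mesoderm, was at 26.7, 10.2 and 14.8 FPKM.

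Genes of the hemato-endothelial program were mostly at low levels, with 21 of 34 kept. Of these, APLNR and RUNX1 were lowered and 0 raised, against 1.08% and 0.236% of all genes kept. The median was -0.10 in clone 1 and -0.06 in clone 2. RUNX1, required for the emergence of blood cells, was at 3.96 FPKM in the control and 0.61 and 1.29 in the clones. It passed the filter through the wild-type libraries. GATA2 was at 1.48, 0.03 and 0.90 FPKM. KDR, a VEGF receptor of hemangiogenic mesoderm, was at 34.4, 26.8 and 32.9 FPKM, and FLT1, another VEGF receptor, at 12.5, 18.4 and 19.01. The list thus held values on both sides of the control.

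Most pluripotency genes were higher in the clones, and few passed the threshold. Of 35 genes kept, 4 were raised (0.236% of all genes kept) and 0 lowered in both clones, and 29 were higher by any amount in both, against 42.5% of all genes kept. The median was 0.66 in clone 1 and 0.51 in clone 2. The raised genes were PRDM14, SOX2, USP44 and GDF3, a TGF-β family ligand at 8.92 FPKM in the control and 22.0 and 20.5 in the clones. POU5F1 (OCT4) was at 597 FPKM in the control, 1068 in clone 1 and 988 in clone 2, with a mean difference of 0.78 ± 0.08. NANOG was at 28.1, 52.8 and 56.4 FPKM, or 0.93 ± 0.07, and FOXD3 at 1.99, 6.56 and 4.47. Both clones lay above the control in each of these, but without reaching 1 in both. KLF5, a factor of early epithelium, was an exception in this list, at 7.95, 2.81 and 4.29 FPKM. Neural and epiblast factors had a median of 0.24 and 0.06, with HES3 raised and NCAM1 lowered among 15 kept (37 were listed). FEZF1, a forebrain factor, was at 0.49 FPKM in the control and 4.69 and 1.89 in the clones, and OTX2 at 42.0, 38.7 and 35.9 FPKM.

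**Figure D3:**
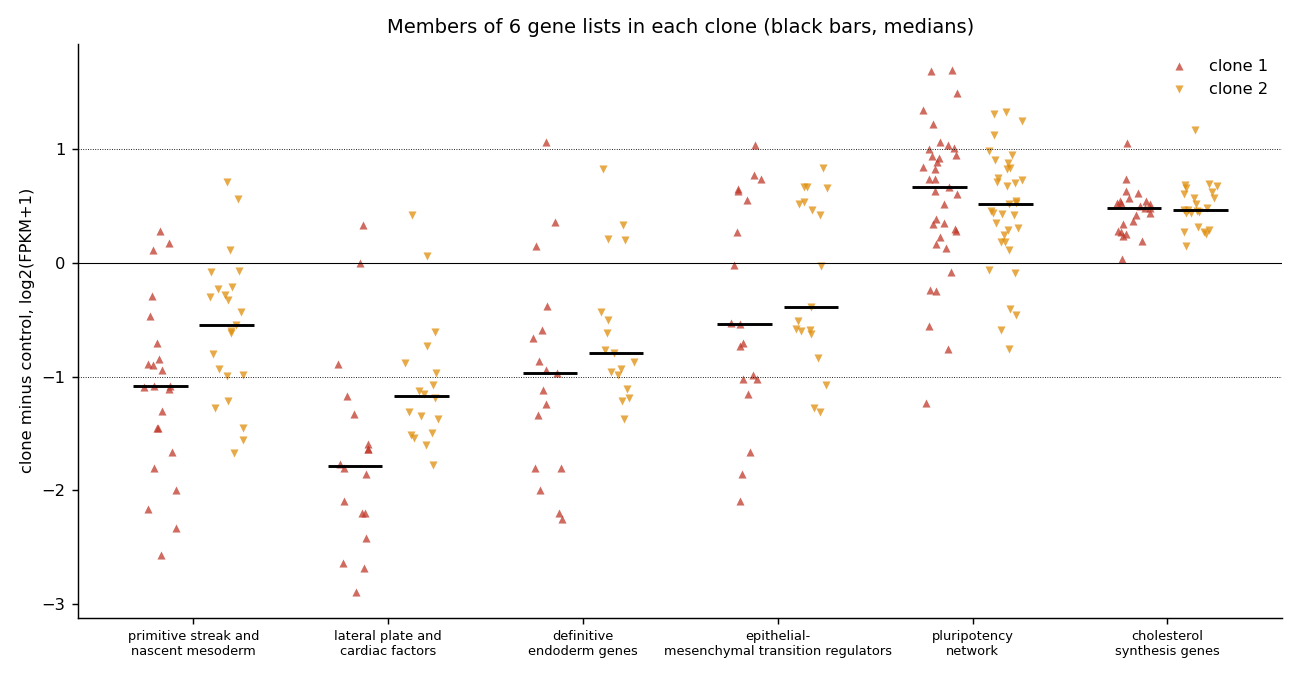
Difference of each list member from the control in clone 1 (upward triangles) and clone 2 (downward triangles) on the log2(FPKM+1) scale; black bars are medians and dotted lines a difference of 1. Lateral plate and cardiac factors have medians of -1.79 and -1.17, pluripotency genes 0.66 and 0.51, and all 23 cholesterol synthesis genes lie above 0 in both clones.

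The genes of cholesterol synthesis and its control were higher in both clones without exception. All 23 members were kept, and 23 of 23 were higher by any amount in both clones, against 42.5% of all genes kept. The list median was 0.48 in clone 1 and 0.46 in clone 2, and 1 of the 23 passed 1 in both clones, while 0 were lowered. FDFT1, squalene synthase, was at 109 FPKM in the control and 183 and 177 in the clones. HMGCS1, which makes HMG-CoA, was at 62.9, 97.9 and 101 FPKM. The smallest difference was that of NSDHL, at 24.9, 25.5 and 27.6 FPKM. Of the 23 members, 16 were higher in clone 2 than in clone 1. The summed level was 1106 FPKM in the control, 1521 in clone 1 and 1548 in clone 2. In the R-spondin2 library, compared with the same control, the median of the list was -0.18.

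The R-spondin pathway itself was uneven. Of its 9 listed genes 6 were kept, and LGR5 was lowered and 0 were raised, against 1.08% and 0.236% of all genes kept. A list of this size would hold few or no calls at those shares, so the 0 raised does not set it apart. RSPO3, a ligand, was at 4.27 FPKM in the control and 0.77 and 1.69 in the clones, and did not reach 1 in clone 2. RNF43, a ubiquitin ligase that is itself a target of WNT signals, was at 1.77, 0.81 and 1.01 FPKM. ZNRF3, the related ligase, was level at 7.61, 8.12 and 7.80 FPKM, and RSPO4 was at 3.42, 5.71 and 3.93. LGR6, RSPO1 and RSPO2 were below the filter, with at most 0.50 FPKM in any library. LGR4 was the second most abundant gene of the list in the control, after LGR5.

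The WNT ligands had 9 of 19 genes kept, with a median of -0.90 in clone 1 and -0.30 in clone 2. Of the 9, 2 were lowered and 0 raised, against 1.08% and 0.236% of all genes kept. WNT5A, a ligand of migrating mesoderm, was at 31.5 FPKM in the control, 42.5 in the R-spondin2 library, and 6.12 and 11.3 in the clones, and WNT8A at 11.2, 3.45 and 4.03 FPKM in the control and the clones. WNT3, the ligand of streak formation, was at 21.2, 10.9 and 16.7 FPKM. Of the Frizzled receptors and co-receptors, all 16 were kept and ROR2, a receptor for WNT5A, was lowered, at 49.2 FPKM in the control and 19.9 and 23.7 in the clones.
Effectors and feedback targets of β-catenin did not move together. Of 30 genes kept, 5 were lowered and 0 raised, and 19 were lower by any amount in both clones, against 1.08%, 0.236% and 35.5% of all genes kept, with a median of -0.51 in clone 1 and -0.14 in clone 2. The lowered genes were LGR5, DKK1, NKD1, BAMBI and CDX2. DKK1, a secreted WNT antagonist, was at 139 FPKM in the control and 39.4 and 62.0 in the clones, and NKD1, an intracellular one, at 19.3, 5.22 and 8.70. AXIN2, the most general of the feedback targets, was at 20.2, 17.6 and 20.8 FPKM, and LEF1 at 8.95, 2.60 and 5.86. TCF7L1, a TCF factor that acts mainly as a repressor in pluripotent cells, was at 28.2, 51.1 and 38.4 FPKM. Among secreted antagonists, SFRP1 was higher in the clones, at 28.8, 82.2 and 48.9 FPKM, while CER1 and DKK1 were lowered.

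Some BMP ligands, antagonists and targets were lowered. Of 14 ligands and extracellular modulators kept, 5 were lowered and 0 raised, against 1.08% and 0.236% of all genes kept. The median was -0.47 in clone 1 and -0.23 in clone 2. BMP4 was at 67.4 FPKM in the control, 98.3 in the R-spondin2 library, and 9.65 and 22.5 in the clones, and BMP2 at 71.5, 95.8, 16.2 and 28.4 FPKM in the same order. The other 3 restrain or modulate the signal, namely NOG (9.52 FPKM in the control, 0.71 and 2.40 in the clones), BMPER (16.6, 2.24 and 4.64) and BAMBI (76.3, 26.3 and 35.6). Among 15 receptors and targets kept, the homeobox target MSX1 and the inhibitory SMAD6 were lowered and 0 raised. ID1 and ID3, direct targets of BMP in many cells, were not lowered, with ID1 at 170, 193 and 176 FPKM and ID3 at 126, 114 and 130 FPKM. NODAL and activin genes had 22 kept, of which CER1 and CFC1B were lowered and GDF3 raised, with a median of -0.00 in clone 1 and -0.05 in clone 2. CFC1B is a near-identical copy of CFC1, which makes its counts uncertain. LEFTY1, a NODAL target and antagonist, was at 36.9, 70.4 and 59.3 FPKM. TGF-β ligands, receptors and targets had 22 kept, 0 lowered and 0 raised, and medians of 0.09 and 0.08. At the shares over all genes kept, few or no calls would fall in a list of this size. TGFB1 had the largest difference of that list, at 32.9 FPKM in the control and 16.03 and 19.1 in the clones.

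FGF and Notch lists had medians close to 0, with a few members far below the control. Of 17 FGF genes kept, FGF10 was lowered, by a mean difference of -1.43, and 0 were raised. FGFR2 was at 15.5, 29.5 and 22.1 FPKM. Of 19 Notch genes kept, 3 were lowered and 0 raised, against 1.08% and 0.236% of all genes kept. HES7, at 2.64 FPKM in the control and 0.27 and 0.27 in the clones, passed the filter through the wild-type libraries. DLL3 was at 107 FPKM in the control and 28.9 and 41.2 in the clones, and DLL1 at 6.07, 1.65 and 1.77. HES7, DLL3 and DLL1 are genes of the segmentation clock of paraxial mesoderm. The Notch receptors NOTCH1 (14.5, 18.4 and 17.7 FPKM) and NOTCH3 (43.1, 51.9 and 45.1) were not lower. Genes of retinoic acid metabolism and its receptors, 13 kept, had 0 lowered and 0 raised, near those shares, with medians of -0.30 and -0.17. CYP26A1, the enzyme that degrades retinoic acid, was at 136, 69.8 and 91.7 FPKM, and DHRS3, which turns retinal back to retinol, at 2.20, 7.12 and 4.84.

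**Figure D4:**
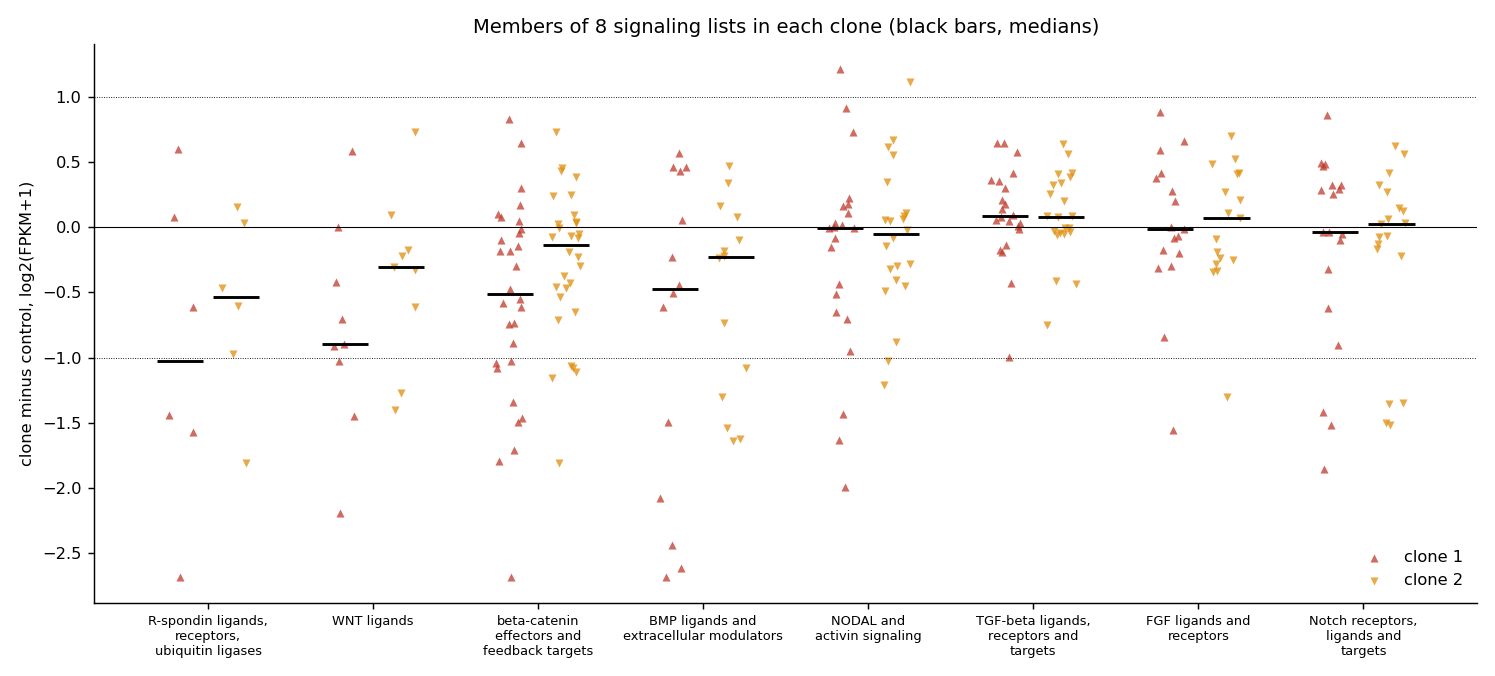
Difference of each member of 8 signaling lists from the control in clone 1 (upward triangles) and clone 2 (downward triangles) on the log2(FPKM+1) scale; black bars are medians and dotted lines a difference of 1. The BMP and β-catenin lists hold separate low points, NOG, BMP4 and LGR5 among them, while the TGF-β list stays within 1 of the control in both clones.

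Some genes of the mesenchymal transition were lowered, and epithelial genes of the same list lay above the control. Of 19 regulators and markers of the transition kept, VIM, SNAI2 and CDH11 were lowered and 0 raised. The shares over all genes kept were 1.08% and 0.236%. VIM, the filament protein of mesenchymal cells, was at 524 FPKM in the control, 144 in clone 1 and 216 in clone 2, and SNAI2, a repressor of E-cadherin, at 9.57, 1.48 and 3.27 FPKM. SNAI1 was at 37.8, 16.4 and 24.1 FPKM. CDH1, which encodes E-cadherin, was at 40.4, 83.8 and 72.7 FPKM, and ESRP1, an epithelial splicing factor, at 24.2, 42.1 and 39.0 FPKM. CDH2, N-cadherin, was at 89.4, 44.8 and 59.1 FPKM. The cadherin and claudin list, with 22 kept, had CDH11 and CDH22 lowered and 0 raised, and CLDN3, a tight junction protein, was at 2.11 FPKM in the control and 7.13 and 4.96 in the clones.

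Matrix and guidance genes were lowered in a few members each. Of 27 collagen chains kept, COL5A1, COL5A2, COL9A2 and COL23A1 were lowered and 0 raised, and the list medians were -0.10 and -0.06. Of all genes kept, 1.08% were lowered and 0.236% raised. COL5A1 was at 91.2 FPKM in the control and 20.7 and 33.3 in the clones, and its partner chain COL5A2 at 96.5, 20.3 and 34.9 FPKM. COL1A1, the main fibrillar chain, was at 64.0, 74.8 and 74.6 FPKM. Among hyaluronan genes, 15 kept, HAPLN1 alone was lowered and 0 raised. HAS2, the main hyaluronan synthase of embryonic mesenchyme, was at 116, 43.9 and 68.5 FPKM, and HAPLN3, a relative of HAPLN1, at 4.68, 17.1 and 10.2 FPKM. Within this family HAPLN1 was below and HAPLN3 above the control in both clones. Of 20 integrins and laminins kept, ITGA5, a fibronectin receptor chain, was at 92.2, 29.7 and 44.8 FPKM and ITGA9 at 15.5, 3.44 and 6.07, and both were lowered. ITGA6, a laminin receptor chain, was at 15.4, 32.7 and 25.2 FPKM.
Of 34 semaphorins, plexins, neuropilins and other guidance genes kept, 6 were lowered and 0 raised, against 1.08% and 0.236% of all genes kept. The medians were -0.02 and -0.06. NRP1 and NRP2, receptors for semaphorins and VEGF, were at 15.1, 2.11 and 4.95 FPKM and at 28.7, 7.57 and 11.46 FPKM. PLXNA2, SEMA6D, UNC5C and NTN4 were the others. Globins and glycophorins, 7 kept, had GYPB and GYPE lowered, which share sequence, while the globin HBG2 was at 9.48, 13.6 and 14.5 FPKM.

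Lists of general cell functions lay close to the control. The 86 ribosomal protein genes had medians of 0.05 in clone 1 and 0.03 in clone 2, the 80 respiratory chain genes 0.05 and 0.03, and the 43 cell cycle and replication genes 0.06 and 0.06. In none of these lists was a gene lowered or raised in both clones (0 of 86, 0 of 80 and 0 of 43). The 19 p53 targets and 20 unfolded protein and heat shock genes also had 0 calls, with medians of 0.03 and 0.06 and of -0.06 and 0.02. Of all genes kept, 1.08% were lowered and 0.236% raised. Lists of these sizes would hold few or no calls at those shares, so the counts of 0 do not set them apart. Of 29 glycolysis genes kept, SLC16A3, a lactate exporter, was lowered, at 19.7 FPKM in the control and 7.96 and 8.74 in the clones, and PKM, pyruvate kinase of muscle type, was at 939, 564 and 609 FPKM. In the list of imprinted genes PLAGL1 was lowered (8.22, 1.96 and 2.83 FPKM), among interferon-stimulated genes OAS1 (4.46, 0.14 and 0.98), and in the insulin-like growth factor axis IGFBP5 (4.29, 0.77 and 0.97). In each of these lists 0 members were raised.

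**Figure D5:**
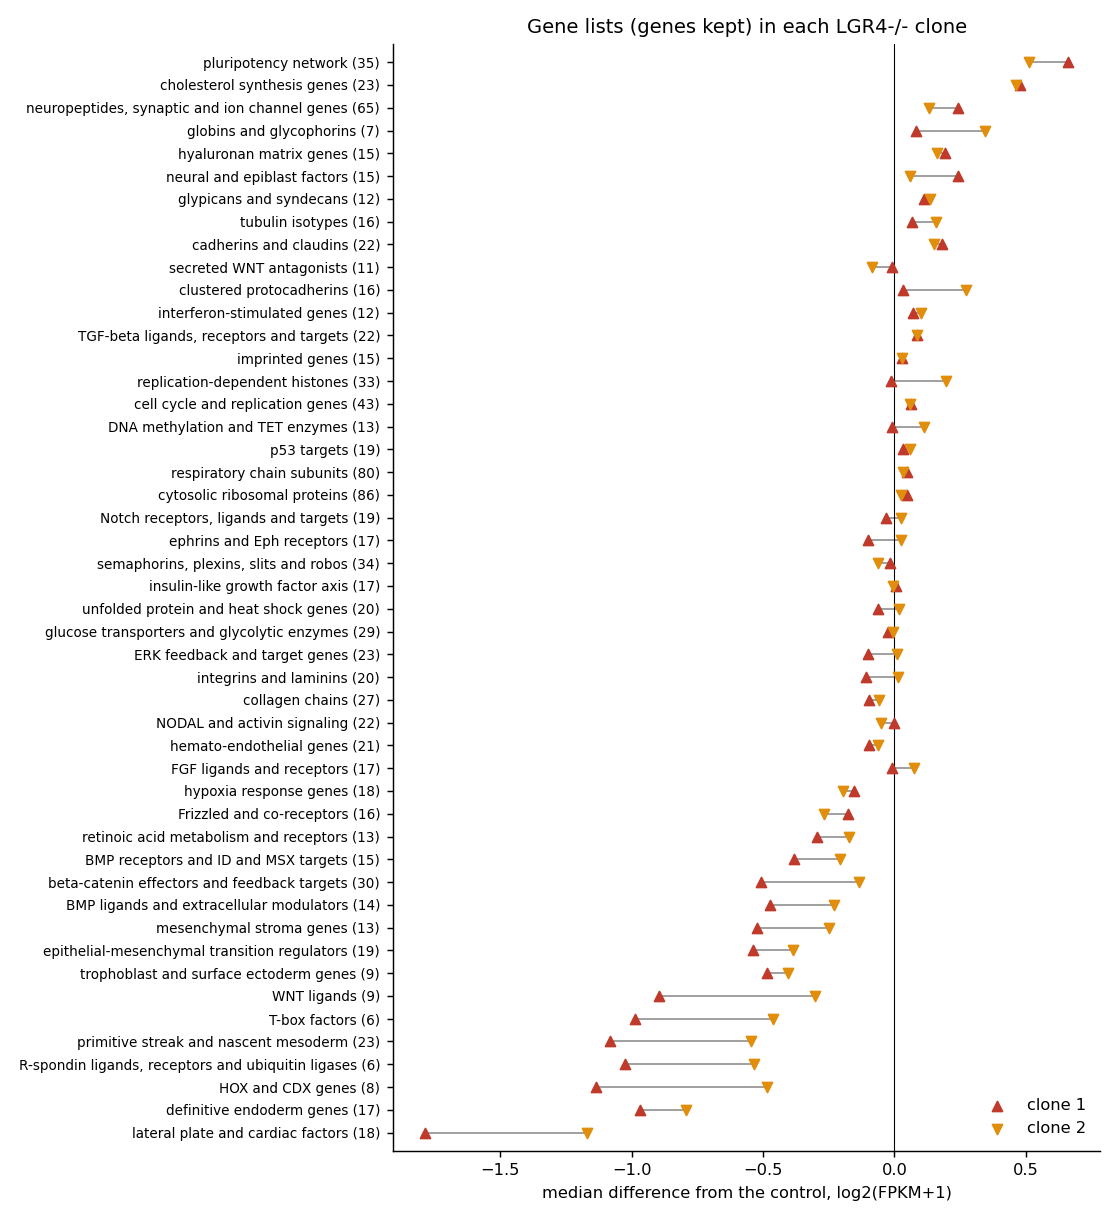
Median difference from the control over the genes kept of each list (their number in parentheses), for clone 1 (upward triangles) and clone 2 (downward triangles), on the log2(FPKM+1) scale, for the lists with at least 6 genes kept. Lateral plate and cardiac factors lie lowest at -1.79 and -1.17, and pluripotency and cholesterol synthesis genes highest, at 0.66 and 0.51 and at 0.48 and 0.46.

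The written lists held 62 of the 137 lowered and 7 of the 30 raised genes, so process terms deposited with the values were also counted. Of 334 terms with 20 to 200 genes kept, anterior/posterior pattern specification had the largest share of lowered genes, 9 of 30. These were MESP2, WNT5A, GATA4, PLXNA2, BMP2, DLL3, FOXC1, FOXF1 and ROR2. BMP signaling pathway had 8 of 31 lowered (25.8%), and embryonic heart tube morphogenesis 5 of 33 (15.2%). In these 3 terms 0 genes were raised, while 1.08% of all genes kept were lowered. The medians over all genes of these terms were -0.11 in clone 1 and -0.06 in clone 2 for pattern specification, -0.26 and -0.0043 for BMP signaling pathway, and -0.15 and -0.05 for heart tube morphogenesis. Terms of TGF-β and WNT signaling had smaller shares. The TGF-β receptor signaling term had 3 of 47 lowered (6.38%), FMOD, SMAD6 and BAMBI, which the written TGF-β list does not hold. Wnt signaling pathway had 1 of 45 (2.22%), its positive regulation 4 of 27 (14.8%) and its negative regulation 3 of 45 (6.67%). Formation of primary germ layer had 0 of 23 lowered, with medians of -0.40 in clone 1 and -0.14 in clone 2.

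The clones were not alike in every gene. Between them, 32 genes differed by at least 1, of which 22 were higher in clone 2. Among these were HAPLN1, HAND1, MESP1, MSX1 and BMP4, all lowered in both clones and further in clone 1. The largest difference was that of SMIM11A, listed at 0 FPKM in all libraries but clone 2, where it was at 4.70, and PCDHB5, a clustered protocadherin, was at 3.05 FPKM in the control, 1.42 in clone 1 and 11.2 in clone 2. PLA2G4B and the read-through JMJD7-PLA2G4B went in opposite directions, at 4.91 and 0.80 FPKM in clone 1 and 0.44 and 4.81 in clone 2, and both share sequence, so the division of reads between them is uncertain. Of the genes called in clone 1 alone, 150 were lowered and 130 raised there, with medians of -0.76 and 0.76 in clone 2. The genes called in clone 2 alone were 12 lowered and 12 raised.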

How the data were processed

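RNA-SEQ was performed by the authors on TRA-1-85-sorted cells of day 2 (TruSeq libraries from total RNA, per the labels). The authors deposited FPKM to 2 decimals for 1 control, 1 R-spondin2 and 2 LGR4-/- libraries. The submitters' processing notes name BWA, Bowtie, RSEM and hg19, with no versions or filters. Counts were not used here, so no count model was fitted. Coordinates come from GENCODE release 29 and RefSeq and are those of GRCh38, not of the files' build.

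Differences of log2(FPKM+1) were taken for each clone and averaged. The filter asked for 1 FPKM on average over the 4 libraries, and calls needed a difference of 1 in both clones. Limma 3.58.1 (R 4.3.3, variance trend, 3 libraries) was run as an alternative with Benjamini-Hochberg adjustment. Its spread came only from the difference between the 2 LGR4-/- libraries, shared across genes, and the single control added none. The labels do not say that the libraries were separate cultures, so its p-values do not measure a spread between cultures. Python 3.11.15, numpy 2.4.6, scipy 1.17.1, pandas 2.3.3 and matplotlib 3.10.9 were used. Depth was the read number at which values under 0.6 FPKM of transcripts under 1500 bases came closest to whole reads; 76.0% to 78.2% of these lay within 0.2 of a whole read, against 43.2% to 48.7% with lengths shuffled. Ratios of implied reads carry 95% exact binomial intervals where clone and control together had at least 10 reads.

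The comparison and the 49 gene lists were chosen with earlier results of these data known; 1 list, mitochondrially encoded genes, had no member in the files. Genes were named by rule: LGR4, the R-spondin list, the 15 largest falls and rises, each called list member and up to 4 further members of a list that are largest or define it. RBM24, PIM2, ERBB3, NSDHL, SMIM11A, PCDHB5, PLA2G4B, JMJD7-PLA2G4B and members beyond 4 in a list were chosen after their values were seen. Alternatives were another pseudocount, filter, threshold, scaling or comparator, and each clone left out. Values of some single genes are not reported here.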

Additional observations from a re-analysis of the deposited data

How the results depend on the processing

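The difference of LGR4 kept its sign in every alternative, from -1.44 to -0.61 with 1 clone left out and from -1.17 to -1.02 otherwise. The 137 lowered and 30 raised genes became 230 and 115 with a pseudocount of 0.1, 392 and 332 with a threshold of 1.5-fold, and 230 and 212 with the R-spondin2 library as comparator. All 137 and all 30 were among the calls with that pseudocount and that threshold, while 128 and 25 remained with the R-spondin2 comparator. With the mean of both wild-type libraries, 98 genes were raised (174 lowered), of which 25 were among the 30, and a filter of at least 5 FPKM left 18 raised and 98 lowered. Leaving out 1 clone gave 149 to 287 lowered and 42 to 160 raised genes, and clone 1 alone gave the higher counts. Limma called 0 and 0 genes at an adjusted p under 0.05. No filter, median ratio scaling, the filter without the R-spondin2 library and leaving out ambiguous genes moved neither count by over 1.5 times. Without the R-spondin2 library in the filter, 131 of the 137 lowered genes remained. The others, GATA3 among them, passed the filter only with the R-spondin2 library counted. The filter reached further, since 15 of the 137 were under 1 FPKM in both clones and were kept through wild-type values. HOXB2, HOXB6, RUNX1, LUM, NKX2-5 and FOXF1, under 1 FPKM in clone 1 and near it in clone 2, were also kept through them. Of 87 named genes, TMEM189-UBE2V1 alone changed sign, to -0.90 against the R-spondin2 library, in which it was highest. None of 14 lists with a median of at least 0.3 in size changed sign, but without a filter, which adds silent genes, the HOX and CDX median was -0.03, the WNT ligand median -0.03 and the R-spondin median -0.03. The cholesterol list ran from 0.44 to 0.63, the pluripotency list from 0.50 to 0.82 and the lateral plate list from -1.86 to -0.94. No paired analysis was possible because the control has 1 library. The single control, the unknown handling of the LGR4-/- lines and a depth of 8700000 to 8920000 reads limit what can be said of low genes and of differences near 1, and the causes of the changes with the settings were not tested.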

Other observations

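Among the raised genes outside the written lists were neighbors on the genome. TAP1 and PSMB8, neighbors in the class II region of the major histocompatibility complex that serve antigen presentation, were at 0.65 and 0.65 FPKM in the control, 2.53 and 2.82 in clone 1 and 2.53 and 2.51 in clone 2. HLA-DRB1, of the same region, was at 0.40 FPKM in the control and 2.27 and 2.23 in the clones. The R-spondin2 library had 1.20, 1.76 and 1.43 FPKM for the 3 genes, also above the control. These are low levels, HLA-DRB1 has near-identical relatives, and the control was the lowest library in each.

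TERF1, a telomere protein, was raised from 65.3 FPKM in the control to 180 and 133 in the clones, and CYP2S1, a cytochrome P450, from 32.6 to 75.1 and 67.5. GATA3 was lowered from 1.81 FPKM to 0.18 and 0.37. It passed the filter only with the R-spondin2 library counted, where it was at 1.90 FPKM. FBN2, a fibrillin of embryonic matrix, was lowered from 93.1 FPKM to 21.9 and 34.01, and COLEC12, a scavenger receptor, from 48.3 to 8.79 and 16.6.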
